A study of Mus musculus with 123 samples.

Results

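The 10 genes described here, of 29022 in the count table, write, keep, remove or protect DNA methylation. They were taken by name: Dnmt1 and Uhrf1, which copy methylation to new strands, Dnmt3a, Dnmt3b and Dnmt3l, which set new methylation, Tet1, Tet2 and Tet3, which oxidise methylated cytosine, and Zfp57 and Trim28, which protect imprinted regions. All 10 were found, and all 10 had enough unique molecular identifiers (UMIs, tags that each mark 1 captured RNA molecule) to be tested. The choice rule was a list of names with no threshold on a measured value. The list was drawn up with earlier results of these data known. DNA methylation itself was not measured, so every value below is an mRNA level.

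After fertilisation the mouse genome loses most of the methylation it received from the gametes, and it is lowest in the cells of the blastocyst, before new methylation is laid down around implantation. UHRF1 binds hemimethylated CpG sites behind the replication fork and recruits DNMT1, which copies the mark, while DNMT3A and DNMT3B methylate new sites, helped by DNMT3L, which has no catalytic activity of its own. The TET enzymes oxidise methylated cytosine, so that it is lost by dilution or repair. At imprinting control regions ZFP57, a KRAB zinc finger protein, and its partner TRIM28 keep the parental methylation in place through this loss.

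RNA was sequenced from single mouse morulae or single inner cell masses (ICMs), in 16 groups of 5 to 8, of a strain labelled B6C3F1, to follow the effect of losing the transcription factor Oct4, the product of Pou5f1, or Sox2 before implantation. Knockout (KO) embryos of the Oct4 line came from Pou5f1 flox/flox; Zp3-Cre mothers, in which Cre is active in the oocyte, and from males with a mutant Pou5f1 allele marked by an mKO2 reporter, and were picked by its fluorescence. KO embryos of the Sox2 line came from Sox2 flox/flox; Zp3-Cre mothers and males with a mutant Sox2 allele marked by an EGFP reporter. Ctrl embryos of both lines had the same mothers, and so lacked the maternal gene product, but carried an intact paternal allele; MWT embryos had mothers with the gene intact. Morulae were collected at E2.75, and ICMs at E3.75 (early) and E4.5 (late) were freed of trophectoderm by immunosurgery after culture from E2.5 in 1 μM PD0325901, a MEK inhibitor that suppresses primitive endoderm. The labels of the Oct4 MWT ICMs give conflicting stages; they are named here by their titles, without a day, and no inhibitor is listed for the early ones.

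Libraries held 525755 to 1344035 UMIs and 12140 to 14169 detected genes. Levels are given as CPM, the UMIs of a gene per 1000000 UMIs of its embryo, as the lowest, median and highest of a group of 8 unless stated. The UMIs mark 3′ ends, so a level is compared between embryos and not between genes, and isoforms cannot be seen. The deletions were checked first: Pou5f1 had 163, 550 and 236 UMIs over the 8 Oct4 Ctrl morulae, early ICMs and late ICMs and 3, 7 and 1 in the KO, and Sox2 had log2 fold changes of -2.97, -2.12 and -3.35 in the Sox2 KO, which kept 14, 176 and 108 UMIs. Which embryos shared a litter is not given, so the p-values measure the spread between these embryos. In embryos and ICMs lysed whole, fewer cells of a type and less RNA per cell cannot be told apart.

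The promoters of the 4 genes whose levels fell together in Oct4 KO early ICMs follow, from 250 bases before the start to 50 bases after it, as RefSeq gives them on GRCm38.p6 (mm10), on the strand of the gene. RefSeq lists 2 promoters for Uhrf1, 3 each for Dnmt1 and Zfp57 and 1 for Tet1, and the one with the most CpG sites is shown for each gene. CpG sites, the substrate of these enzymes, are in capitals for Uhrf1 at chr17:56304063-56304362 (+), Tet1 at chr10:62887275-62887574 (-) and Zfp57 at chr17:37002275-37002574 (+). For Dnmt1 at chr9:20952574-20952873 (-) the capitals mark TTTGGCGC, an E2F motif, from base 284.
Uhrf1: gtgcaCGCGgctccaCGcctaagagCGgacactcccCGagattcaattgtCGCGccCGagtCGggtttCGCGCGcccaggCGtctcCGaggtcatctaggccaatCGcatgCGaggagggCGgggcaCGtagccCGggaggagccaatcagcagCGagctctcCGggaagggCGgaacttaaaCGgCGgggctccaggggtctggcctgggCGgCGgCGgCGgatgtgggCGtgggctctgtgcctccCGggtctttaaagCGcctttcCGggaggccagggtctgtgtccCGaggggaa
Tet1: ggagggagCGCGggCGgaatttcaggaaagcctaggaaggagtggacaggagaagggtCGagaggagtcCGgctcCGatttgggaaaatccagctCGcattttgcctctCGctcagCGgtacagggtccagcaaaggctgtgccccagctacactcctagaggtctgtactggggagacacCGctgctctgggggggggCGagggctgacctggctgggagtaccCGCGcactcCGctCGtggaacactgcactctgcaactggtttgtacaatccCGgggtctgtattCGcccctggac
Zfp57: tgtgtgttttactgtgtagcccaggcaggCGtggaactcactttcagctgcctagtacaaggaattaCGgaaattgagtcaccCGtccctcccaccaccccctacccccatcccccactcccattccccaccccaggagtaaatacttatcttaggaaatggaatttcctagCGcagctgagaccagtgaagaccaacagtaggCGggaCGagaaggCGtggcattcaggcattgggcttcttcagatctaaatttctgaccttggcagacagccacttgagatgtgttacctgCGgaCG
Dnmt1: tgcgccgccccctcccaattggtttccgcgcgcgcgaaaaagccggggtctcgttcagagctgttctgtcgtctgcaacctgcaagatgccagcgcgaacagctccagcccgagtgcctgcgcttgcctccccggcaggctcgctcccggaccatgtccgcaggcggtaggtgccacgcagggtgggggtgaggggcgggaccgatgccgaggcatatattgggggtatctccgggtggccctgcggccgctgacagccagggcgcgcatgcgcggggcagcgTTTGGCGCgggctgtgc

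These windows hold 33 CpG sites for Uhrf1, 17 for Tet1, 9 for Zfp57 and 33 for Dnmt1, where the median of the 32851 mouse promoters in the table is 7. The share of promoters with fewer sites is 91.4% for Uhrf1 and for Dnmt1, 68.6% for Tet1 and 54.2% for Zfp57. The promoters not shown hold 12 CpG sites for Uhrf1, 12 and 2 for Dnmt1 and 6 and 4 for Zfp57. The 10 genes have 19 listed promoters, and 4 words were searched in them on both strands: the octamer ATGCAAAT, found in 1.74% of all promoters, the Sox core ACAATG, in 12.57%, and the E2F words TTTGGCGC, in 0.51%, and TTTCCCGC, in 1.07%. TTTGGCGC was found in the Dnmt1 promoter printed above, and the other words in none of the 19, which concerns these letters in this window only.

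Uhrf1, on chromosome 17 (56303321 to 56323486, + strand), was low in morulae and high in Ctrl ICMs. In early ICMs of the Oct4 line it stood at 43.8, 60.3 and 112 CPM in the Ctrl and at 2.22, 7.92 and 15.4 CPM in the KO, with no overlap. It fell by 3.10 ± 0.33 on the log2 scale (SE), 8.56-fold, with an adjusted p of 1.66e-12 in edgeR's quasi-likelihood test. The study named Uhrf1 among the genes that depend on Oct4 and Sox2 from these same embryos, so its fall is not independent evidence of that direction. In late ICMs it stood at 51.8, 86.1 and 126 CPM in the Ctrl and 11.6, 23.0 and 53.05 CPM in the KO, and it fell by 1.64 ± 0.30 (adjusted p = 4.30e-06). The 2 late groups overlapped through 1 KO embryo, while the other 7 KO embryos lay below every Ctrl embryo.

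In the Sox2 line Uhrf1 was past the threshold in late ICMs, where it stood at 51.0, 101 and 169 CPM in the Ctrl and 18.9, 43.7 and 87.0 CPM in the KO, a fall of 1.09 ± 0.27 (adjusted p = 0.00201). The groups overlapped, and all 8 KO embryos were below the Ctrl median. Uhrf1 stayed past the threshold in 10 of 13 alternative ways of processing, with an adjusted p of up to 0.277. Late ICMs carry numbers that begin with 1 or 2, whose meaning the labels do not give. The Ctrl embryos of the first series held 51.0 to 83.6 CPM and those of the second 119 to 169 CPM, and the fall was 0.59 (adjusted p = 0.184) within the first and 1.43 (adjusted p = 0.00863) within the second. In early ICMs the Sox2 Ctrl held 34.2, 97.2 and 144 CPM and the KO 37.1, 52.6 and 70.7 CPM, a log2 difference of -0.78 with an adjusted p of 0.052. The morulae of both lines held little Uhrf1, with medians of 9.35 CPM in Oct4 Ctrl, 3.39 in Oct4 KO, 9.53 in Sox2 Ctrl and 10.4 in Sox2 KO, and no difference there passed the test.

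Dnmt1, the maintenance enzyme itself (chromosome 9, 20907209 to 20959888, - strand), moved less. In Oct4 Ctrl early ICMs it stood at 40.3, 47.5 and 62.4 CPM and in the KO at 17.1, 29.8 and 34.3 CPM, so that the groups did not overlap. It fell by 0.79 ± 0.15 (1.73-fold, adjusted p = 4.01e-05), which is past the threshold for p and short of the 2-fold size required for a call. On the 2 embryos per group that share a number it did not pass, with or without the number as a block (adjusted p = 0.287 and 0.275). In late ICMs the Ctrl held 56.4, 79.9 and 94.99 CPM and the KO 23.2, 47.8 and 65.5 CPM, a fall of 0.63 ± 0.15 (adjusted p = 0.00031), with 0 of 8 KO embryos above the Ctrl median; within either number series alone it was not past the threshold (adjusted p = 0.124 in each). In the Sox2 line the early medians were 73.4 CPM in the Ctrl and 70.6 in the KO, a log2 difference of 0.01 with a 95% interval of -0.26 to 0.28.

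**Figure D1:**
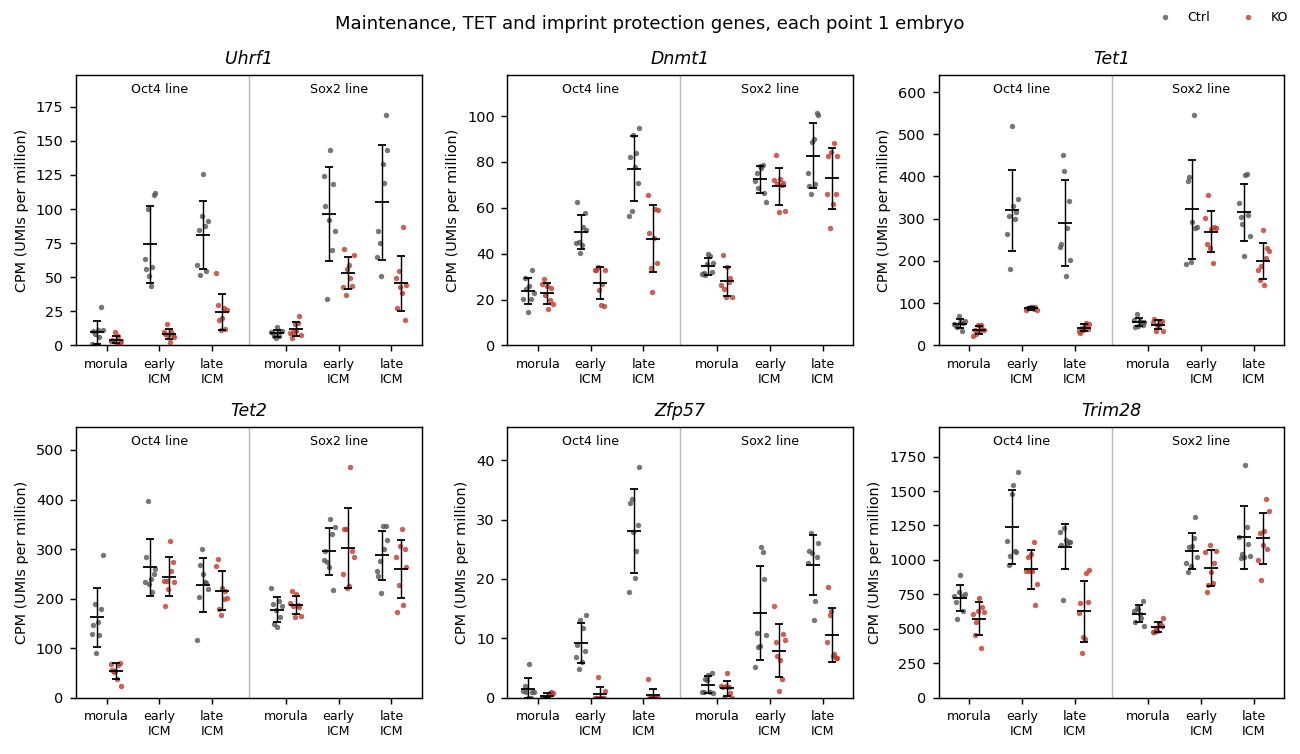
Levels of Uhrf1, Dnmt1, Tet1, Tet2, Zfp57 and Trim28 in CPM (linear axes from 0) by line and stage, with 1 point per embryo (grey Ctrl, red KO) and the mean ± SD of 8 embryos in black. Uhrf1, Tet1, Zfp57 and Dnmt1 in Oct4 KO early ICMs, and Tet2 in Oct4 KO morulae, lie below every Ctrl embryo.

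Of the de novo enzymes, Dnmt3a (chromosome 12, 3806007 to 3914443, + strand) was higher in Sox2 KO ICMs: late ICMs stood at 31.1, 35.3 and 94.7 CPM in the Ctrl and 72.1, 119 and 174 CPM in the KO, and Dnmt3a rose by 1.43 ± 0.26 (2.70-fold, adjusted p = 1.47e-05). The groups overlapped, and all 8 KO embryos were above the Ctrl median; the rise was 1.81 (adjusted p = 7.72e-05) in the first number series and 1.18 (adjusted p = 0.00982) in the second. In early ICMs the Ctrl spread from 8.62 to 102 CPM around a median of 44.8, the KO stood at 58.1, 93.9 and 120 CPM, and the rise of 0.85 ± 0.25 (adjusted p = 0.0226) was lost when any 1 of 10 embryos was left out of the fit to these groups (Ctrl 4, 9, 11 and 15, KO 2, 5, 8, 10, 17 and 21, adjusted p 0.05 to 0.0762). In the Oct4 line Dnmt3a did not pass the test at any stage, with a late log2 difference of 0.53 (95% interval -0.12 to 1.19).

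Dnmt3b (chromosome 2, 153649450 to 153687730, + strand) varied widely between late ICMs. In the Sox2 line they stood at 51.5, 177 and 496 CPM in the Ctrl and 37.4, 99.4 and 192 CPM in the KO, a fall of 0.90 ± 0.29 (adjusted p = 0.0212). With the spread taken from these 2 groups alone the adjusted p was 0.096, and with the number series as a block 0.112. The 4 second-series Ctrl embryos reached 496 CPM and the 4 of the first 218 CPM. In Oct4 KO ICMs the log2 differences were -0.14 early and -0.18 late (95% interval -0.73 to 0.36), neither past the threshold.

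Dnmt3l, the cofactor of the de novo enzymes (chromosome 10, 78041947 to 78063622, + strand), passed no KO test. In Oct4 late ICMs it stood at 28.4, 91.5 and 223 CPM in the Ctrl and 54.0, 74.6 and 114 CPM in the KO, and in Sox2 late ICMs the medians were 116 CPM in the Ctrl and 99.9 in the KO. The KO intervals reached from -0.94 to 0.43 in Oct4 early ICMs and from -0.75 to 0.44 in the late ones.

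**Figure D2:**
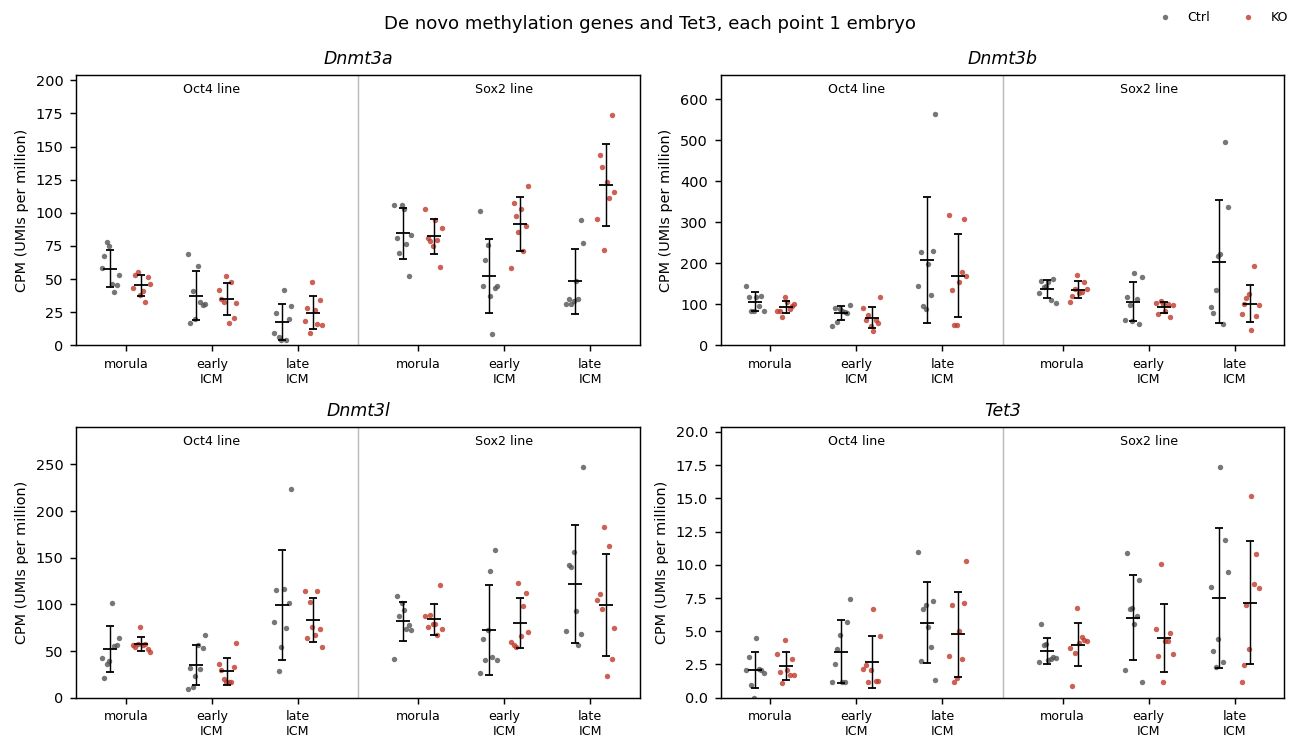
Levels of Dnmt3a, Dnmt3b, Dnmt3l and Tet3 in CPM (linear axes from 0) by line and stage, with 1 point per embryo (grey Ctrl, red KO) and the mean ± SD of 8 embryos in black. All 8 Sox2 KO late ICMs lie above the Ctrl median of Dnmt3a (35.3 CPM), and 1 Oct4 Ctrl late ICM reaches 563 CPM of Dnmt3b.

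Among the TET genes, Tet1 (chromosome 10, 62804570 to 62908996, - strand) and Tet2 (chromosome 3, 133463679 to 133545139, - strand) were lower in Oct4 KO at different stages. Tet1 stood at 180, 311 and 520 CPM in Oct4 Ctrl early ICMs and at 83.1, 88.6 and 91.1 CPM in the KO, whose 8 embryos lay within a narrow range. It fell by 1.78 ± 0.17 (3.44-fold, adjusted p = 4.24e-15). In late ICMs the Ctrl held 165, 259 and 451 CPM and the KO 29.4, 40.0 and 52.2 CPM, a fall of 2.70 ± 0.18 (6.50-fold, adjusted p = 6.27e-23), again with no overlap. In Sox2 late ICMs Tet1 stood at 213, 307 and 405 CPM in the Ctrl and 142, 197 and 273 CPM in the KO, a fall of 0.56 ± 0.16 (adjusted p = 0.00941) that was not past the threshold within either number series (adjusted p = 0.173 and 0.06). Early Sox2 ICMs held a median of 287 CPM in the Ctrl and 277 in the KO (log2 difference -0.19, 95% interval -0.50 to 0.12).

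Tet2 was the 1 gene of the set that passed the test in morulae, in the Oct4 line. Tet1 (log2 difference -0.435, adjusted p = 0.273) and Trim28 (-0.276, adjusted p = 0.381) were lower there without passing. Each had 0 of 8 KO morulae above the Ctrl median. Dnmt3l (0.20) and Tet3 (0.25) were higher, also without passing. Oct4 Ctrl morulae stood at 90.3, 150 and 289 CPM and KO morulae at 23.3, 54.5 and 70.9 CPM, with no overlap, and Tet2 fell by 1.55 ± 0.17 (2.93-fold, adjusted p = 1.38e-10). In the ICMs of the Oct4 line the groups stood side by side, with medians of 244 and 236 CPM early and 232 and 208 CPM late, and log2 differences of -0.03 (95% interval -0.35 to 0.28) and 0.03 (-0.29 to 0.35). In Sox2 morulae the medians were 182 CPM in the Ctrl and 187 in the KO (log2 difference 0.08, -0.23 to 0.40). Tet3 (chromosome 6, 83362373 to 83459084, - strand), known as the main TET enzyme of the zygote, had medians of 1.17 to 7.61 CPM across the 16 groups, and with 15 to 53 UMIs per group its KO intervals were wide (-1.20 to 0.64 in Oct4 early ICMs); no difference was detectable at this depth.

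Of the imprint protectors, Zfp57 (chromosome 17, 37001163 to 37010635, + strand) was nearly absent from Oct4 KO ICMs. Early ICMs held 4.86, 8.43 and 13.9 CPM in the Ctrl, and 2 of 8 KO embryos held any UMI (0, 0 and 3.55 CPM); the groups together held 63 and 4 UMIs, a ratio of 16.1 (95% interval 5.98 to 60.9, counting error only). Of the 4 KO UMIs, 3 were in 1 embryo, KO early ICM 5, and leaving out each embryo in turn, with only these groups fitted, gave log2 fold changes of -4.88 (without that embryo) to -3.45, with adjusted p of at most 0.000201. Late ICMs held 17.9, 28.5 and 38.8 CPM in the Ctrl and 0, 0 and 3.12 CPM in the KO, that is 150 UMIs against 2, both in 1 embryo, a ratio of 84.2 (22.9 to 702). Leaving out each embryo in turn gave late log2 fold changes of -7.28 (without that KO embryo, 1-2) to -5.54, with adjusted p of at most 3.25e-08. The adjusted p was 1.72e-07 early and 6.32e-15 late. The early value did not pass on the 2 embryos per group that share a number with the number as a block (adjusted p = 0.0529). Across the alternative ways of processing the log2 fold change ran from -5.775 to -1.32 early and from -7.39 to -2.52 late. In Sox2 late ICMs Zfp57 stood at 13.0, 24.0 and 27.7 CPM in the Ctrl and 6.60, 8.38 and 18.7 CPM in the KO, a fall of 0.97 ± 0.33 (adjusted p = 0.0383) with 0 of 8 KO embryos above the Ctrl median and overlap between the groups. Within the first number series the adjusted p was 0.171 and within the second 0.0433. It was 0.0661 without the filter on low counts and 0.125 with counts thinned to the lowest depth. Morulae held 3 to 19 UMIs of Zfp57 per Ctrl or KO group, and no difference was detectable at this depth.

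Trim28 (chromosome 7, 12999114 to 13031035, + strand) was abundant in every group and moved by less than 2-fold. In Oct4 late ICMs it stood at 706, 1128 and 1234 CPM in the Ctrl and 324, 651 and 927 CPM in the KO, a fall of 0.71 ± 0.13 (1.64-fold, adjusted p = 1.12e-05). The groups overlapped through 1 low Ctrl embryo, and the fall was 0.99 (adjusted p = 0.00793) in the first number series and 0.48 (adjusted p = 0.149) in the second. In early ICMs the medians were 1102 CPM in the Ctrl and 922 in the KO, with an adjusted p of 0.0565, and in the Sox2 line none of the 3 stages passed the test. Zbtb45 lies over Trim28 and held 4171 UMIs; since the strand setting of the counting is not given in the sources used here, reads of overlapping genes may be shared.

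Counted together, 1 of the 10 genes was called in Oct4 KO morulae (0.804% of the 14053 genes tested were called), 3 in early ICMs (10.9% of all) and 3 in late ICMs (18.1%), all lower, where a call needed at least a 2-fold change and an adjusted p under 0.05. By p alone the counts were 1 (1.47% of all genes), 4 (21%) and 5 (31.7%). In Sox2 KO embryos 0, 0 and 2 were called (0.00712%, 3.27% and 6.95% of all genes), 1 of the 2 higher, and 0, 1 and 5 passed p alone (0.00712%, 7.04% and 13.8%). Beside the 0 in Sox2 KO morulae, 618 genes had an unadjusted p under 0.05 in edgeR and 541 in DESeq2, and each tool called 1 gene and none of the 10. The median log2 fold change of the 10 was -0.31 in Oct4 KO early ICMs and -0.41 in late ones, where that of all genes was 0.01 and -0.01, and it was -0.12 and -0.14 in the Sox2 line, where that of all genes was -0.01 and 0.00.

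**Figure D3:**
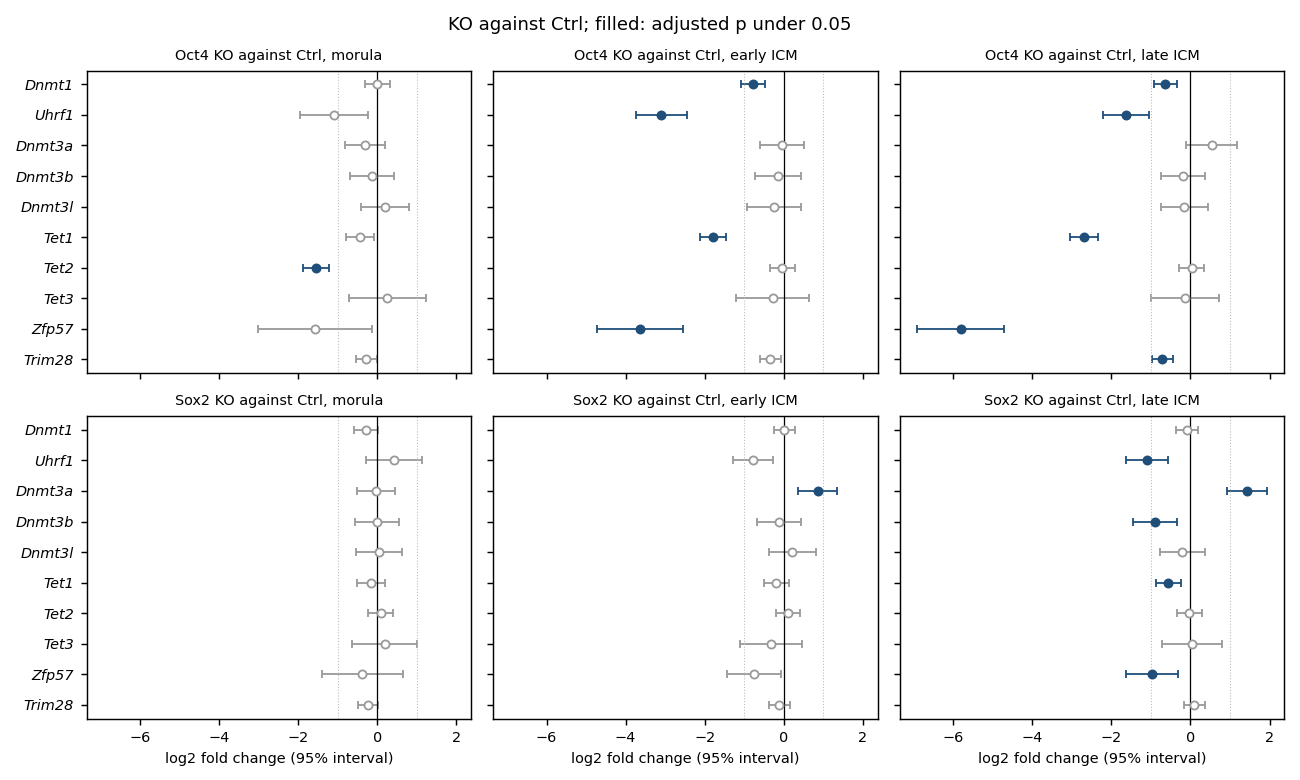
Log2 fold change of KO against Ctrl for the 10 genes (x axis, with 95% interval) in 6 panels by line and stage; filled points passed an adjusted p under 0.05, and dotted lines mark a log2 fold change of 1. Uhrf1, Tet1 and Zfp57 lie beyond the left dotted line in both Oct4 ICM panels, and Dnmt3a beyond the right one in Sox2 late ICMs.

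The difference between the lines was itself tested, as the KO effect in Sox2 minus that in Oct4. In early ICMs it was 2.32 ± 0.43 for Uhrf1 (adjusted p = 6.77e-05), 1.60 ± 0.23 for Tet1 (adjusted p = 1.69e-07), 2.88 ± 0.68 for Zfp57 (adjusted p = 0.00238) and 0.80 ± 0.21 for Dnmt1 (adjusted p = 0.00615, and 0.299 with counts thinned to the lowest depth), so all 4 fell further without Oct4; 3 of the 10 were called and 4 passed p alone, where 5.52% and 8.12% of all genes did. In late ICMs Tet1 (2.14 ± 0.24, adjusted p = 5.53e-11), Zfp57 (4.85 ± 0.71, adjusted p = 2.75e-07) and Trim28 (0.81 ± 0.19, adjusted p = 0.00208) differed, with 2 called (6.3% of all genes) and 3 past p alone (8.67%), and the late difference of 0.54 for Uhrf1 did not pass (adjusted p = 0.462). The size of the Zfp57 difference depended on the processing. Over 7 alternatives it ran from 0.80 to 3.16 early and from 1.74 to 6.08 late, past the threshold in each. Within the Oct4 line the effect on Uhrf1 was smaller late than early (difference 1.46 ± 0.45, adjusted p = 0.0432) and that on Tet1 was larger (-0.92 ± 0.24, adjusted p = 0.0135). The Uhrf1 difference was lost when scaled by totals alone (adjusted p = 0.0523) and with limma on rlog (adjusted p = 0.0784). This comparison had 1 of the 10 called and 2 past p alone, beside 3.11% and 4.46% of all genes. No effect passed the test between early and late in the Sox2 line (0.0427% of all genes by either rule, 1494 genes with an unadjusted p under 0.05). The lines differ in mothers, reporter and collection as well as in the deleted gene, and these cannot be told apart. Sox2 mRNA was itself lower in Oct4 KO late ICMs (log2 fold change -1.62, adjusted p = 1.03e-06), and Pou5f1 did not pass the test in Sox2 KO at any stage.

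From the morula to the early ICM 6 of the 10 genes rose by p alone in Ctrl embryos of both lines: Uhrf1, Dnmt1, Zfp57, Trim28, Tet1 and Tet2. Of all genes, 48% and 51.7% passed p alone in either direction. Uhrf1 rose by 2.86 ± 0.32 in Oct4 Ctrl and 3.32 ± 0.31 in Sox2 Ctrl, from medians of 9.35 and 9.53 CPM to 60.3 and 97.2 CPM, with no overlap between stages. Tet1 rose by 2.52 and 2.47 and Zfp57 by 2.50 and 2.56, while Dnmt1 rose by 0.95 and 1.00, Trim28 by 0.67 and 0.74 and Tet2 by 0.60 and 0.66. Dnmt3a alone fell, by 0.73 and 0.74. Called were 3 genes in Oct4 Ctrl (29% of all genes) and 4 in Sox2 Ctrl (31.9%), all higher, and 7 in each passed p alone (48% and 51.7% of all genes). Stage, culture in the inhibitor and removal of the trophectoderm change together in this step and cannot be told apart, and the stage steps share their Ctrl embryos with the KO comparisons.

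In KO embryos of the Oct4 line 4 genes passed p alone in this step, of which Tet1, Tet2 and Trim28 had also passed in the Ctrl. Tet1 rose by 1.18 ± 0.18 and Tet2 by 2.12 ± 0.17, from 54.5 to 236 CPM in the medians, and Dnmt3l fell by 1.10 ± 0.33; Uhrf1, Zfp57 and Dnmt1 did not pass the test. With 2 higher and 1 lower, 3 genes were called (26.3% of all genes), and Trim28, which rose by 0.61, passed p alone (45.1%). In Sox2 KO embryos Uhrf1 rose by 2.11, Tet1 by 2.44, Zfp57 by 2.18 and Dnmt1 by 1.30, which made 4 genes called (32.5% of all), and with Tet2 (0.69) and Trim28 (0.86) 6 passed p alone (51.9%). The difference between the KO and the Ctrl step was not tested.

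From early to late ICM Dnmt3b and its cofactor Dnmt3l rose in both genotypes of the Oct4 line. In Oct4 Ctrl Dnmt3b rose by 1.46 ± 0.29 (adjusted p = 3.05e-05), Dnmt3l by 1.54 ± 0.32 (adjusted p = 7.83e-05) and Zfp57 by 1.65 ± 0.34 (adjusted p = 5.22e-05), all called (15.6% of all genes), while Dnmt1 rose by 0.70 and Dnmt3a fell by 1.00, which made 5 past p alone (32.4%). In Oct4 KO, Dnmt3b rose by 1.42, Dnmt3l by 1.64 and Uhrf1 by 1.65, so 3 were called (16% of all genes), while Tet1 fell by 1.00, Trim28 fell by 0.49 and Dnmt1 rose by 0.85, which made 6 past p alone (32.5%). In Sox2 Ctrl Dnmt3b alone passed the test (a rise of 0.91, adjusted p = 0.0316) and none was called (7.21% of all genes by p alone and 2.9% called, 2955 at an unadjusted p under 0.05). In Sox2 KO none passed either rule (4.5% of all genes by p alone and 1.07% called, 2548 at an unadjusted p under 0.05).

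**Figure D4:**
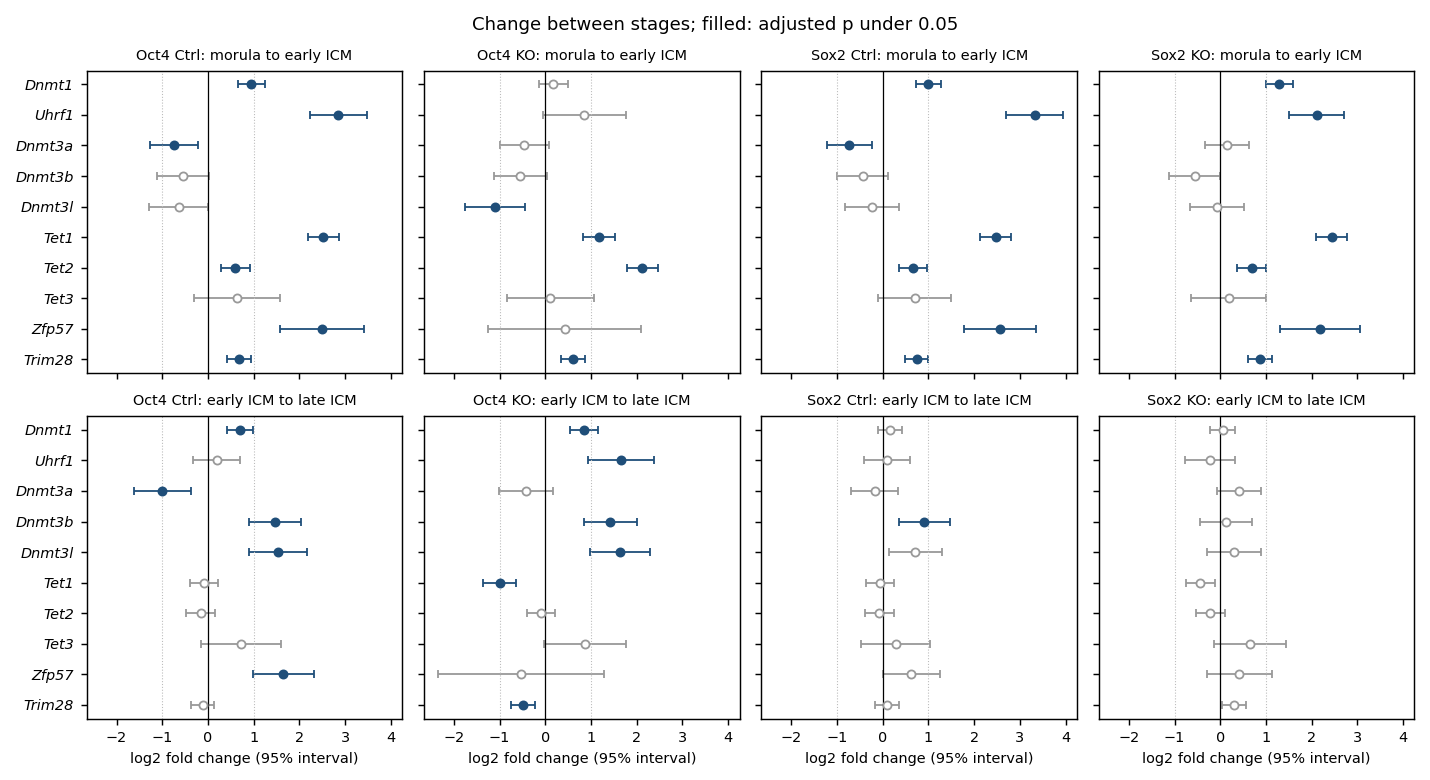
Log2 fold change between stages for the 10 genes (x axis, with 95% interval), with morula to early ICM in the upper 4 panels and early to late ICM in the lower 4, by line and genotype; filled points passed an adjusted p under 0.05. Uhrf1 rises by 2.86 and 3.32 in the upper Ctrl panels, and in Oct4 KO it passes the test in the lower panel (1.65).

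Embryos from mothers that kept the gene were set against the Ctrl to see whether the maternal deletion went with a difference. The Oct4 MWT ICMs have conflicting stage labels, and no inhibitor is listed for the early ones. In those groups stage, and in the early ones the inhibitor, cannot be told apart from the maternal deletion. None of the 10 passed the test in Oct4 MWT morulae (n = 7), where 0.079% of the 13923 genes tested passed p alone, 0.0646% were called and 1005 had an unadjusted p under 0.05. None passed in early ICMs (n = 5, 0.639% and 0.373% of all genes, 1326 at an unadjusted p under 0.05). In late ICMs 1 was called (0.797% of all genes, and 1.58% by p alone): Dnmt3l stood at 19.01, 37.1 and 53.6 CPM in the MWT and 28.4, 91.5 and 223 CPM in the Ctrl, lower in the MWT by 1.62 ± 0.32 (adjusted p = 0.00122), with 0 of 8 MWT embryos above the Ctrl median. The 9 primitive endoderm markers summed to 112.9, 216.3 and 451.1 CPM in these MWT embryos and 282.6, 655.3 and 1476 CPM in the Ctrl. Their part in the Dnmt3l value was not tested. In Sox2 MWT early ICMs (n = 7) none was called (2.58% of all genes, 2852 at an unadjusted p under 0.05), and Trim28 (-0.56, adjusted p = 0.00894) and Tet1 (-0.56, adjusted p = 0.0381) were lower by p alone (6.33% of all genes). For Tet1 edgeR's adjusted p was 0.0532 without the filter on low counts and 0.113 with only these groups fitted. There the primitive endoderm markers summed to 974.5 to 1463 CPM in the MWT and 215.4 to 888.1 CPM in the Ctrl, with no overlap, while the epiblast and trophectoderm sums overlapped. Their part in these values was not tested.

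Between the Ctrl embryos of the lines, 3 of the 10 genes differed past the threshold at 1 stage or more. Dnmt1 was higher in Sox2 Ctrl by 0.53 in morulae (adjusted p = 0.00746, the 1 gene past p alone beside 21% of all genes, with none called beside 6.98%) and by 0.58 in early ICMs (adjusted p = 0.000946). Dnmt3l was higher in Sox2 Ctrl early ICMs by 1.06 ± 0.32 (adjusted p = 0.00923), the 1 gene called there (9.94% of all genes), so that 2 passed p alone (25.9%). Dnmt3a was higher in Sox2 Ctrl late ICMs by 1.35 ± 0.31 (adjusted p = 0.00257), again the 1 called (2.63% of all genes, and 5.74% by p alone), with medians of 14.8 CPM in the Oct4 Ctrl and 35.3 in the Sox2 Ctrl. The median difference over the 10 genes was 0.45 in morulae, 0.49 in early and 0.15 in late ICMs, beside -0.03, 0.03 and 0.00 over all genes.

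Partners of these enzymes were read from lists of known roles. In Oct4 KO early ICMs, 2 of 12 maintenance partners were called (10.9% of all genes were), both lower: Uhrf2 (-1.95), a relative of Uhrf1, and Usp7 (-1.12), a deubiquitinase that binds DNMT1 and UHRF1. In late ICMs 3 were (18.1% of all genes), all lower: Uhrf2 (-1.36), Hells (-1.28), a chromatin remodeller needed for methylation, and the histone deacetylase Hdac1 (-1.22). The list's median was -0.68 early and -0.46 late, beside 0.01 and -0.01 for all genes, and 10 and 7 of the 12 were lower by p alone, a rule that 21% and 31.7% of all genes passed in either direction. In Sox2 KO early and late ICMs none was called (3.27% and 6.95% of all genes), and 1 and 3 of the 12 were lower by p alone (7.04% and 13.8% of all genes in either direction). The list's medians there were 0.05 and 0.06.

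The supply of the methyl donor and of 2-oxoglutarate, the cofactor of the TET enzymes, also held called genes. Of 11 tested, 3 were called in Oct4 KO early ICMs and 3 in late ones, all lower: Ahcy, which removes the product that inhibits methyltransferases (-2.11 early, -2.06 late), Idh1, which makes 2-oxoglutarate (-1.45 and -1.59), and Shmt2, of mitochondrial one-carbon metabolism (-1.10 and -2.12). By p alone 3 genes of the list were higher and 3 lower early, and 2 were higher and 4 lower late. Of all genes, 21% and 31.7% passed p alone in either direction. The list's median was -0.04 early and -0.39 late. In Sox2 KO early ICMs none was called. Over all genes 10.9% and 18.1% were called in Oct4 KO early and late ICMs.

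Of 15 tested TET partners and base excision repair genes, Gadd45g (2.06) and Gadd45b (1.55), both stress-induced, were called higher in Oct4 KO early ICMs, and the thymine DNA glycosylase Tdg (-1.65) lower (10.9% of all genes were called). Late, Cxxc5 (-1.12) and the endonuclease Apex1 (-1.01) were called lower (18.1% of all genes called). Gadd45a was called higher in Sox2 KO early (1.13) and late (1.09) ICMs, where 3.27% and 6.95% of all genes were called. Among 13 imprint protection and KRAB partners, Atrx (-1.13) and Dppa3 (-1.01), which shields methylation in the zygote, were called lower in Oct4 KO late ICMs (18.1% of all genes called) and none in the other comparisons of KO with Ctrl. None of the 6 methyl-CpG readers or 11 histone enzymes tested was called in a comparison of KO with Ctrl. In morulae no gene of these lists was called, beside 0.804% of all genes in the Oct4 line and 0.00712% in the Sox2 line; in ICMs the shares of all genes are those given above. In Oct4 KO early and late ICMs the median was -0.27 and -0.44 for the TET partners and -0.29 and -0.35 for the imprint partners. It was -0.33 and -0.15 for the readers and -0.21 and -0.30 for the histone enzymes.

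Dnmt1 and Uhrf1 follow DNA replication, so 18 S phase genes were counted beside them. In Oct4 KO early ICMs 2 were called lower (10.9% of all genes called), Gins2 (-1.38) and Mcm6 (-1.21), with a list median of -0.33, and in late ICMs Gins2 (-1.07) was called lower and Rrm2 (1.46) higher (18.1% of all genes called), with a median of -0.28. In Sox2 KO early ICMs Cdc6 (1.09) was called higher, with a median of 0.19, and late none, with a median of 0.00, beside 3.27% and 6.95% of all genes called. The summed level of the 18 ranged from 2553 to 4015 CPM in Oct4 Ctrl early ICMs and from 1823 to 2886 CPM in the KO, and from 1620 to 3250 and 2002 to 2961 CPM in late ones. Their part in the results was not tested.

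Markers of the cells a library could hold moved with the KO too. The 8 epiblast markers summed to 2378 to 3711 CPM in Oct4 Ctrl early ICMs and 1423 to 1919 CPM in the KO, and to 2463 to 3969 and 519.6 to 1212 CPM in late ones. The 10 trophectoderm markers summed to 419.5 to 1616 CPM in Oct4 Ctrl early ICMs and 873.3 to 1621 CPM in the KO, and to 425.4 to 1688 and 2233 to 4627 CPM in late ones, so the late groups did not overlap. The 9 primitive endoderm markers summed to 583.1 to 922.3 CPM in Oct4 Ctrl early ICMs and 795.2 to 1302 CPM in the KO. In late ones the sums were 282.6 to 1476 and 886.2 to 1605 CPM, with medians of 655.3 and 1351 CPM. The groups overlapped at both stages. Sums in Oct4 Ctrl and KO morulae overlapped too. The epiblast sums were 920.8 to 1210 and 672.6 to 1077 CPM, and the trophectoderm sums 519.4 to 1389 and 780.4 to 1576 CPM. In the Sox2 line the late epiblast sums were 2694 to 4494 CPM in the Ctrl and 1445 to 2394 CPM in the KO, and the early trophectoderm sums 143.8 to 667.0 and 979.9 to 2443 CPM. The other sums of these lists overlapped there: the early epiblast sums were 1605 to 3655 CPM in the Ctrl and 1505 to 1938 CPM in the KO, and the late trophectoderm sums 241.3 to 3487 and 908.6 to 3046 CPM. No epiblast marker was at 0 in any group; Foxa2, an endoderm marker, was at 0 in all morulae and early ICMs, and of 8 oocyte and cumulus markers found, Ptx3 was at 0 in every group. The part of these shifts in the results was not tested.

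**Figure D5:**
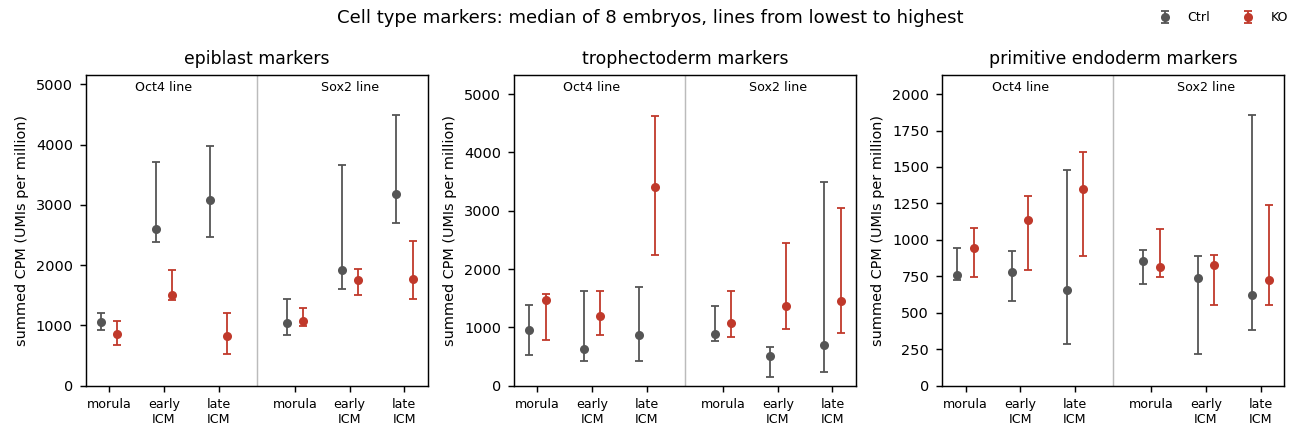
Summed CPM of epiblast, trophectoderm and primitive endoderm markers (linear axes from 0) by line and stage, with the median of 8 embryos as a point and the lowest to highest embryo as a line (grey Ctrl, red KO). In Oct4 KO late ICMs the epiblast median is 830.4 CPM against 3085 in the Ctrl, and the trophectoderm median 3400 against 874.9.

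Over the 16 group means of log2(CPM + 1), which share embryos' depth and stage and are described without a test, Uhrf1 ran closest to Tet1 (r = 0.93), Zfp57 (0.91) and Dnmt1 (0.91), Tet1 to Uhrf1, and Dnmt3b to Dnmt3l (0.68), while Dnmt3a had no r above 0.30 with any of the others. Of the 7528 genes compared, those with the pattern most like Uhrf1 were Rfx2 (r = 0.98), Brpf3 (0.97) and Impa1 (0.97), those like Tet1 were Epha4 (0.98), Slc4a7 (0.97) and Pcsk6 (0.97), and those like Zfp57 were Etv5 (0.98), Dglucy (0.97) and Zfp428 (0.97). For Dnmt1 they were Sdhb (0.98), Tcf20 (0.98) and Ttyh3 (0.97), and for Trim28 Rapgef1 (0.92), Specc1l (0.92) and Cfap36 (0.91). Dnmt3a was closest to Gabarapl2 (0.89), Strn (0.87) and Gnptab (0.87), Dnmt3b to Entr1 (0.88), Sbno2 (0.85) and Nipsnap3b (0.85), and Dnmt3l to Lad1 (0.89), Rpl23 (0.89) and Eif1 (0.86). Tet2 was closest to Pde6d (0.93), Tes (0.92) and Arfgef1 (0.91), and Tet3 to Lcmt1 (0.94), Ssh1 (0.93) and Ttyh3 (0.92).

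By median level the groups of each gene kept an order that its spread only partly separates. Uhrf1 was highest in Oct4 MWT early ICMs (68.0 to 117 CPM, n = 5) and Sox2 Ctrl late ICMs (51.0 to 169 CPM), which overlapped, and lowest in Oct4 KO morulae (1.06 to 9.73 CPM), which overlapped with Oct4 KO early ICMs. Tet1 had its highest median in Oct4 MWT late ICMs (203 to 414 CPM), next to Oct4 Ctrl early ICMs (180 to 520 CPM), and its lowest in Oct4 KO morulae (23.3 to 49.2 CPM), next to Oct4 KO late ICMs (29.4 to 52.2 CPM). Zfp57 was highest in Oct4 MWT late ICMs (5.33 to 76.0 CPM), where the spread took in every other Ctrl or MWT ICM group in part.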

How the data were processed

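Single morulae and ICMs were sequenced from their 3′ ends. Per the labels and the study's methods, the authors extracted UMIs with UMI-tools, trimmed with Cutadapt, aligned to mm10 with TopHat2 (Bowtie2) and GENCODE vM23 annotation, counted with featureCounts and TRUmiCount, and deposited UMI counts per gene; tool versions and the strand setting are not given in the sources used here. The authors also deposited DESeq2 rlog values (log2 scale), used here in 1 alternative only.

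The counts were fitted with edgeR 4.0.16 in R 4.3.3 (TMM scaling, quasi-likelihood test, Benjamini-Hochberg adjustment over all genes), on the 14053 genes with a UMI in a share of 0.5 or more of the embryos of some stage, over the 96 Ctrl and KO embryos of 12 groups; comparisons with MWT used all embryos and 13923 genes. A call needed an adjusted p under 0.05 and a log2 change of 1 or more in size. Depth was 525755 to 1344035 UMIs, and intervals on UMI sums cover counting error only. Over 416 pairs of embryos within a group, the lowest chi-square per gene was 2.41, so no library was counted as a copy of another.

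All 10 genes were named in every comparison, with called members of the partner lists in KO against Ctrl (at most 4 per list and comparison; those of other comparisons are not named) and, for each of the 10, the 3 genes of highest correlation over group means, of those with at least 20 CPM in a group. The result of 1 list gene is not reported here. The genes and lists were chosen with earlier results of these data known. Promoters came from RefSeq on GRCm38.p6. Alternatives were DESeq2 1.42.0, other scaling, no filter, thinning to the lowest depth, limma 3.58.1 on rlog, only the groups compared and all embryos. A block for embryo number and the number series of late ICMs were used in some comparisons of KO with Ctrl. Each embryo was left out in turn only for KO against Ctrl and for Oct4 MWT against Ctrl early ICMs. The edgeR code was tested on simulated data.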

Additional observations from a re-analysis of the deposited data

Results flagged for a closer look

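In 17 of 160 sets of gene and group (10.6%), 1 embryo stood apart from the others of its group by a gap that chance gives in about 1 of 20 sets. The highest were, in CPM, Dnmt3a in Oct4 MWT morula 3 (90.4), Dnmt3b in Oct4 MWT early ICM 3 (138) and in Oct4 Ctrl late ICM 2-9 (563), and Tet2 in Oct4 Ctrl early ICM 3 (396). For Dnmt3l they were Oct4 KO morula 5 (75.7), Oct4 KO early ICM 18 (58.5), Oct4 Ctrl late ICM 2-9 (223) and Sox2 KO morula 19 (120.3), so embryo 2-9 stood apart for both Dnmt3b and Dnmt3l. Uhrf1 was high in Oct4 Ctrl morula 18 (27.8) and in Oct4 KO late ICM 1-2 (53.05). The latter also held both UMIs of Zfp57 of its group (3.12), and Zfp57 stood apart in Oct4 Ctrl morula 15 (5.60), Oct4 KO early ICM 5 (3.55) and Sox2 KO morula 9 (4.15). Tet3 was high in Sox2 KO early ICM 5 (10.04). Trim28 was low in Oct4 Ctrl late ICM 1-4 (706) and high in Sox2 Ctrl late ICM 2-1 (1687).

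The effect of KO differed between the lines in early ICMs for Dnmt1 (0.80), Uhrf1 (2.32), Tet1 (1.60) and Zfp57 (2.88), and in late ICMs for Tet1 (2.14), Zfp57 (4.85) and Trim28 (0.81), each a difference of log2 fold changes, Sox2 minus Oct4. Between early and late ICMs of the Oct4 line it differed for Uhrf1 (1.46) and Tet1 (-0.92).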

How the results depend on the processing

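Counts of the 10 genes called changed by 2-fold or more, or to or from 0, in 4 of 25 comparisons. Smaller changes, as between 3 and 4, are not listed. For example, Dnmt1 from morula to early ICM lay on both sides of the 2-fold limit across the alternatives. Its log2 change was 0.79 to 1.06 in Oct4 Ctrl and 0.905 to 1.07 in Sox2 Ctrl. In Sox2 KO late ICMs 2 were called, against 4 when scaled by totals alone, 1 with limma on rlog, 1 within the first number series, and 1 to 4 with 1 embryo left out (1 without Ctrl 2-4 or KO 2-8, 4 without Ctrl 2-3). In Sox2 KO early ICMs 0 were called, and 0 to 1 with 1 embryo left out (1 without Ctrl 2). The late minus early difference in the Oct4 line called 1 gene, and 0 when scaled by totals alone. Sox2 against Oct4 Ctrl early ICMs called 1, and 0 with limma on rlog. With 1 embryo left out, Oct4 KO counts stayed at 1, 3 and 3. Single genes were run under the alternatives only where they had passed p alone, so genes that had not passed were not examined for a gain. Apart from embryos left out, 551 of these values stayed past the threshold, 33 lost it and none reversed; those of Sox2 KO late ICMs were the least stable, with Dnmt3b past it in 6 of 13 alternatives (adjusted p 0.00997 to 0.733), while Uhrf1 and Tet1 in Oct4 KO ICMs were past it in every one, as was Zfp57 late, while in early ICMs Zfp57 was in 9 of 10 and Dnmt1 in 8 of 10.

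Same-numbered Ctrl and KO embryos deviated together with r from -0.07 to 0.20. Each comparison examined had only 2 to 4 such pairs, too few to tell whether the numbers pair the embryos. On the embryos that share a number, the replicate block called 1 gene in Sox2 KO early ICMs, and the fit without it called 1 in Sox2 KO late ICMs. Scaling moved the median of all genes by at most 0.10 (log2). Genes of few UMIs, Tet3 and morula Zfp57, are limited by depth.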
